A study of Mus musculus with 8 samples.

Results

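The comparison set 2 arrays of mouse embryonic stem cells carrying a hairpin against Fbxl19, shRNA1, against 2 arrays of cells carrying a control hairpin, shControl. These 4 arrays, of 8 in the series, were chosen by their sample titles alone, and all 12394 genes with a probe set of their own were tested. The other 4 arrays are a second hairpin, shRNA2, and cells on day 4 of differentiation, with 2 arrays each. All cells were of the J1 line, a male mouse embryonic stem cell line, and the protocol describes culture on gelatin with fetal bovine serum and leukemia inhibitory factor, the cytokine that keeps such cells undifferentiated. The sources used here do not give the hairpins' sequences, their delivery or the time of harvest. They also do not say whether paired arrays stem from separate cultures, and p-values then measure only the spread between arrays, which may be technical. The description of shRNA1 replicate 2 names Fbxl20, and those of the shRNA2 arrays name Fbxl21 and Fbxl22, whereas all titles and source names give Fbxl19, which was followed here. The array annotation lists no probe set for Fbxl19, and its knockdown was therefore not measured. Fbxl20 had 6.53 and 6.73 in shRNA1 cells, against 6.64 and 6.49 in shControl cells, on the log2 scale, and the groups overlapped.

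Fbxl19 belongs to the F-box proteins, which carry substrates to SCF ubiquitin ligases. It also has a CXXC zinc finger, a fold that binds CpG dinucleotides without methylation, and such CpG-dense stretches mark most promoters of housekeeping and developmental genes. The title of the series names Rnf20, the ligase that attaches a single ubiquitin to histone H2B, a mark laid down on transcribed genes. Stem cells of this kind express the transcription factors Oct4, Nanog and Sox2, and a small share of a culture passes at times through a state with transcripts of the embryo at the two-cell stage.

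Markers of undifferentiated cells were bright in both groups. The 12 markers had group means of 9.74 to 13.89 in shRNA1 cells and 9.77 to 13.65 in shControl cells on the log2 scale, and 0 of them were called. Pou5f1, the gene of Oct4, had 12.41 and 12.44 in shRNA1 cells, against 12.31 and 12.57 in shControl cells. Nanog had 11.55 and 11.70 in shRNA1 cells, against 11.69 and 11.54 in shControl cells. Of 11 fibroblast markers, 6 had group means below 3.787, the lowest lower quartile of any array, in shRNA1 cells and likewise 6 in shControl cells. Averaged over these 11 markers, the level was 4.187 and 3.999 with shRNA1, against 4.090 and 3.973 with shControl. No marker of primitive endoderm, trophoblast, early neural cells or primitive streak was called.

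With shRNA1, 30 genes were called by limma at a Benjamini-Hochberg adjusted p under 0.05, which is 0.242% of the genes tested. Of these, 21 rose (0.169%) and 9 fell (0.0726%). Genes of the two-cell stage embryo, genes induced by the tumour suppressor p53 and the homeobox gene Otx2 were among those that rose. Those that fell included the growth factor gene Fgf18, the transcription factor genes Gbx2 and Dmrt1, and 4 genes of nuclear machinery, Nup210, Eloa, Mcrs1 and Xpo7. The change was at least 2-fold for 28 of the 30, as it was for 0.589% of all genes, and all 30 had both shRNA1 arrays outside the range of the shControl arrays. Such separation was found for 43.4% of all genes, 20.4% with higher and 23% with lower values in shRNA1 cells, so by itself it says little, and 2 arrays against 2 cannot give an exact permutation p below 0.333 for a single gene. Over all genes the median change was -0.000905 on the log2 scale, and 1218 genes (9.83%) had an unadjusted p under 0.05, 578 with higher and 640 with lower values in shRNA1 cells.

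The count rested on few arrays and on the estimate of spread that all 4 groups share. Leaving out shControl replicate 1 or replicate 2 gave 2 called genes each, shRNA1 replicate 1 or replicate 2 gave 3 each, shRNA2 replicate 1 or replicate 2 gave 18 each, and either day 4 array gave 113. Usp17la and AF067061 passed without each of the 4 compared arrays in turn, and no other of the 30 did. The direction of all 30 held in every setting tried. For actin, the gap between 3' and 5' control probe sets, a sign of RNA quality, was 0.71 and 0.70 with shRNA1, against 0.60 and 0.54 with shControl, and its part in these results was not tested. That of Gapdh overlapped, with 0.23 and 0.18 for shRNA1 and 0.17 and 0.26 for shControl.

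**Figure D1:**
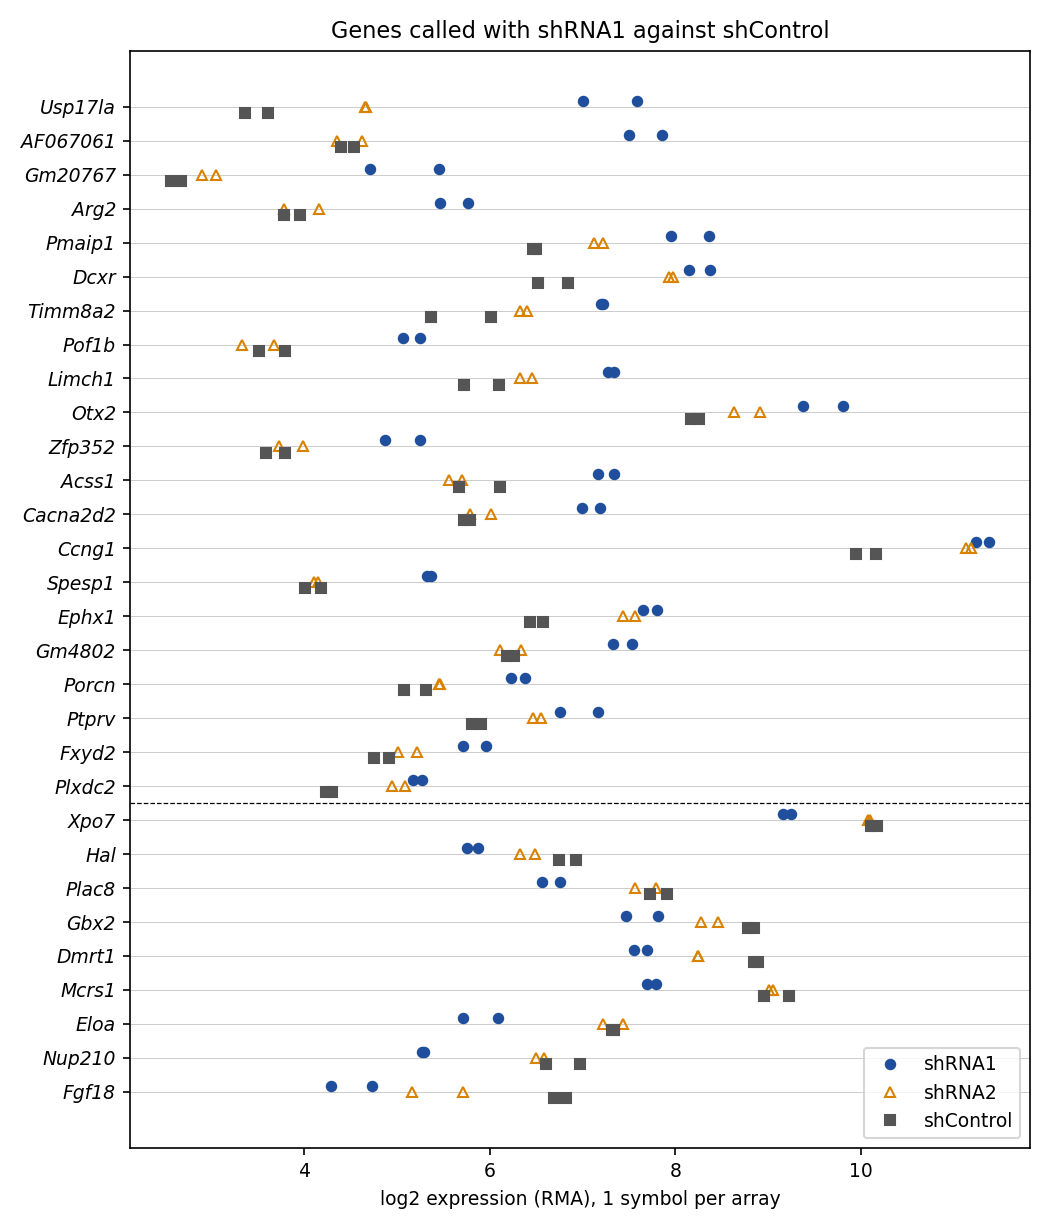
The log2 expression of the 30 called genes (horizontal axis) on each array, with 2 symbols per group for shRNA1, shRNA2 and shControl; the dashed line parts the 21 genes that rose from the 9 that fell. In all 30 genes the shRNA1 circles lie to one side of the shControl squares, and the shRNA2 triangles lie near the squares for AF067061, Eloa and Mcrs1 and near the circles for Ccng1 and Dcxr.

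**Figure D2:**
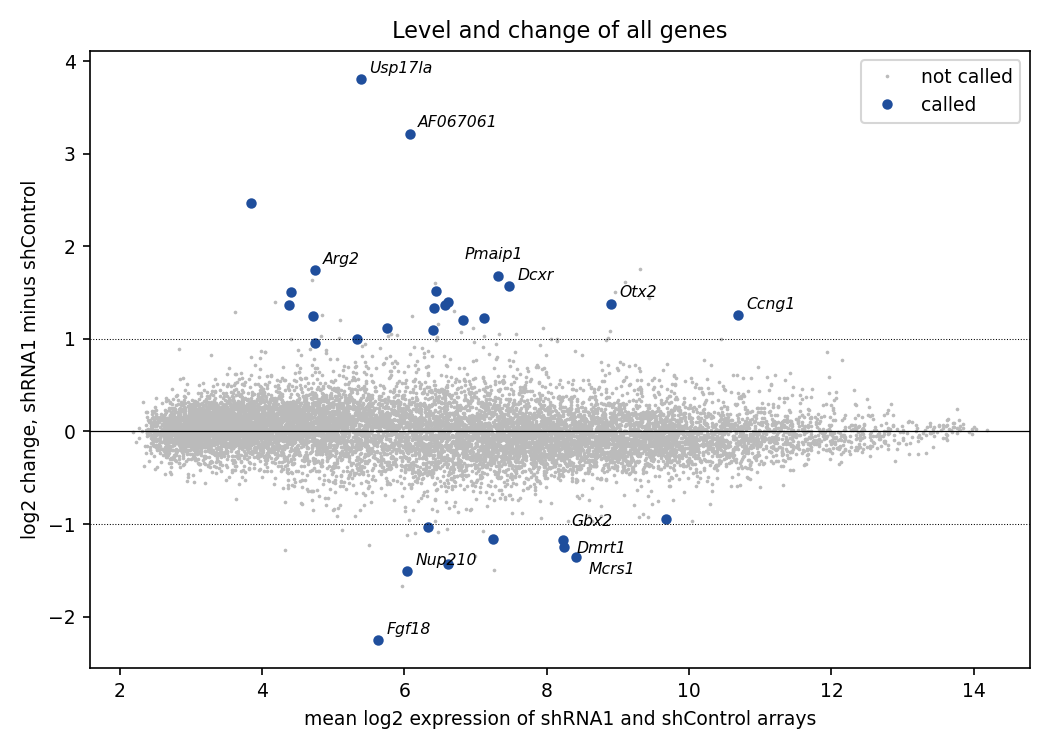
The log2 change with shRNA1 against shControl (vertical axis) of all 12394 genes by their mean log2 expression over the 4 arrays (horizontal axis); called genes are large points and dotted lines mark a 2-fold change. The called genes lie at the edges of a cloud centred on 0, with Usp17la at 3.81 and Fgf18 at -2.25.

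The promoters of some called genes are printed here because the CXXC finger of Fbxl19 binds CpG. They were picked by hand and do not represent all called genes. Those of genes that rose are among the lowest in CG, and those of genes that fell among the higher. Binding of Fbxl19 was not measured. Each window is the 250 bases before the gene's start in RefSeq (GRCm38.p6), 5' to 3' on the gene's strand, with CG in capitals. The Usp17la window lies at chr7:104856766-104857015 on the plus strand and the AF067061 window at chr13:120262845-120263094 on the plus strand; both genes rose. The windows of Mcrs1 (chr15:99251962-99252211 on the minus strand), Eloa (chr4:136021650-136021899 on the minus strand) and Nup210 (chr6:91116827-91117076 on the minus strand) belong to genes that fell.
Usp17la: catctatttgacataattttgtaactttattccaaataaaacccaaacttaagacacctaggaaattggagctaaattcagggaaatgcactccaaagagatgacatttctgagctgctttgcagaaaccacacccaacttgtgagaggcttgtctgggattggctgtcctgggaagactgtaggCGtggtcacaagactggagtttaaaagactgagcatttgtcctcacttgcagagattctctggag
AF067061: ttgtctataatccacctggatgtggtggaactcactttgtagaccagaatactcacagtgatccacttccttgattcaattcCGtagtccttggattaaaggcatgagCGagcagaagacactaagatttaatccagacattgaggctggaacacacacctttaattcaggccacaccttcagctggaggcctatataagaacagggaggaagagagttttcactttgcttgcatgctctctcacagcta
Mcrs1: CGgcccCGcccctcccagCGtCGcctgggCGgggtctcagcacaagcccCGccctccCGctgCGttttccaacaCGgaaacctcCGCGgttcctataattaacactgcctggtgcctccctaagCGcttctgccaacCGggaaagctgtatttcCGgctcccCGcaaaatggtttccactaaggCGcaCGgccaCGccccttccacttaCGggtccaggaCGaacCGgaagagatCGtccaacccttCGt
Eloa: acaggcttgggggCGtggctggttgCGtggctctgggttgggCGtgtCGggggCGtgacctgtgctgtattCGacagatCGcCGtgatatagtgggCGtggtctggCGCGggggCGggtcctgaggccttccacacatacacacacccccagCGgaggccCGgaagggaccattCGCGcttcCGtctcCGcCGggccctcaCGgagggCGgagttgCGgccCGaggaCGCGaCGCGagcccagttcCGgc
Nup210: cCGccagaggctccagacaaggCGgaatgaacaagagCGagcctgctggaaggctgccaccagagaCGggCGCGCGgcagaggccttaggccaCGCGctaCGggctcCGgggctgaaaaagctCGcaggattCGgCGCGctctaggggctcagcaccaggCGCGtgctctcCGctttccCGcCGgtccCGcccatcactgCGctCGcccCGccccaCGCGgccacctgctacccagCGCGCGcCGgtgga

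These windows held CG 1 time in Usp17la and 2 times in AF067061, against 23 in Mcrs1, 28 in Eloa and 30 in Nup210. RefSeq promoters were matched for 14 of the 21 genes that rose, 7 of the 9 that fell and 9888 of all genes tested, taking the start with the most CG where a gene has several. The median count of CG was 6 for the genes that rose, 23 for those that fell and 15 for all genes. At least 20 were found in 2 of 14, in 4 of 7 and in 33.5% of all promoters. The exceptions among genes that rose were Cacna2d2 with 34 and Limch1 with 30, and the lowest among those that fell was Hal with 6. The counts of genes that rose ran from 1 to 34 and those of genes that fell from 6 to 37, so they overlapped, and no test was made on them.

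Over all genes, the median change by CG count of the promoter was small and its trend hung on 1 control array. Genes with 0 to 4 CG had a median change of 0.05 on the log2 scale (1788 genes), and genes with 30 or more had -0.05 (1083 genes). Set against shControl replicate 1 alone, the medians were -0.005 and -0.016. Against shControl replicate 2 alone they were 0.09 and -0.10. That array also stood apart in its lower quartile, 3.787, where the other 7 arrays had 3.837 to 3.903.

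Among the genes that rose, the largest change was in those of the two-cell stage. Usp17la, which encodes a deubiquitinase and has many near-identical copies, had 7.59 and 7.01 in shRNA1 cells, against 3.61 and 3.36 in shControl cells. Both shRNA1 arrays lay far above the controls, and the rise was 3.81 ± 0.20 on the log2 scale (SE, n = 2 arrays per group; limma adjusted p = 9.29e-05). Zfp352, a zinc finger gene transcribed at the two-cell stage, had 5.25 and 4.87 in shRNA1 cells, against 3.79 and 3.59 in shControl cells, and rose by 1.37 ± 0.18 (limma adjusted p = 0.0219). Its other probe set gave 1.40. In shControl cells both genes averaged less than the lower quartile of all 8 arrays. Whether signal stood above background at such levels was not tested, so the size of their rise is uncertain.

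AF067061 and Gm20767 lie on chromosome 13, in a stretch that also holds the two-cell genes Tcstv1 and Tcstv3. Counting protein-coding genes in RefSeq onward from Tcstv1, Gm20767 is the fifth, AF067061 the 7th and Tcstv3 the 9th. AF067061 had 7.86 and 7.51 in shRNA1 cells, against 4.54 and 4.39 in shControl cells, a rise of 3.22 ± 0.16 (limma adjusted p = 9.29e-05). Gm20767, a predicted gene named here after its values were seen, had 5.45 and 4.71 in shRNA1 cells, against 2.67 and 2.57 in shControl cells (limma adjusted p = 0.00681). Both genes were clear of the controls, although Gm20767 in shControl cells averaged less than the lowest of the arrays' lower quartiles. Tcstv1 had 0.57 ± 0.16 (limma adjusted p = 0.302) and Tcstv3 had 0.23 ± 0.14 (adjusted p = 0.643), and for both genes both groups averaged less than that value. Probes of near-identical family members can read each other's transcripts here and in the Usp17 family, so the members cannot be told apart. Of the 28 genes in the two-cell list 14 were measured. Of these 14, 3 rose and 0 fell, beside 0.169% of all genes that rose and 0.0726% that fell. This list, like the others here, was chosen with earlier results of these data known, so its count is no independent support. The list's median change was 0.28 on the log2 scale (0.12 with the dimmest genes left out), beside -0.000905 for all genes. The third member that rose was Arg2.

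Arg2, the mitochondrial arginase, had 5.76 and 5.46 in shRNA1 cells, against 3.78 and 3.95 in shControl cells. It rose by 1.74 ± 0.24 (limma adjusted p = 0.0276), and its other probe set gave 1.26. Of the other members of the list, Dppa2, a regulator of two-cell genes in mouse, had 10.97 and 10.83 in shRNA1 cells, against 10.56 and 10.40 in shControl cells. Its groups did not overlap, as was so for 43.4% of all genes, and it was not called (adjusted p = 0.399). Of the 14 measured members 11 lay above 0 and 3 below, among them Dppa4 with -0.04 ± 0.14 (limma adjusted p = 0.943).

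The second group that rose holds genes induced by p53, the transcription factor that answers DNA damage and other stress. Pmaip1, the gene of Noxa, which promotes apoptosis, had 7.95 and 8.37 in shRNA1 cells, against 6.47 and 6.50 in shControl cells. It rose 3.2-fold, by 1.68 ± 0.20 (limma adjusted p = 0.0131). Ccng1, cyclin G1, had 11.38 and 11.25 in shRNA1 cells, against 10.17 and 9.95 in shControl cells, a rise of 1.26 ± 0.14 (limma adjusted p = 0.0131). The other probe sets of Ccng1 gave 0.92 and 0.56, so the size of its rise depended on the probe set. Ptprv, a receptor-type tyrosine phosphatase gene that p53 induces in mouse, had 7.16 and 6.75 in shRNA1 cells, against 5.90 and 5.81 in shControl cells, and rose by 1.10 ± 0.16 (limma adjusted p = 0.0317).

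A pair of enzyme genes counted in the same list also rose. Dcxr, a reductase of L-xylulose and dicarbonyl compounds, had 8.38 and 8.14 in shRNA1 cells, against 6.53 and 6.85 in shControl cells, a rise of 1.57 ± 0.16 (limma adjusted p = 0.0114). Ephx1, the microsomal epoxide hydrolase, had 7.80 and 7.65 in shRNA1 cells, against 6.57 and 6.43 in shControl cells, a rise of 1.22 ± 0.13 (limma adjusted p = 0.0131). Both were placed in the list with their rise in these arrays known, so their part in its count is no support. In all, 5 of 29 measured p53 targets rose and 0 fell, beside 0.169% of all genes that rose. The list's median change was 0.41 on the log2 scale with 23 members above 0, beside -0.000905 and 49.9% for all genes. Without Dcxr and Ephx1, a choice made after seeing the data, 3 of 27 rose, the median was 0.32 and 21 lay above 0. Averaging the probe sets of each gene gave a median of 0.25, and leaving out shControl replicate 1 gave 0.26.

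Several central p53 targets were not called. Cdkn1a, the cell cycle inhibitor p21, had 9.19 and 9.08 in shRNA1 cells, against 8.36 and 8.42 in shControl cells, and narrowly missed the threshold at 0.75 ± 0.13 (limma adjusted p = 0.0595). Btg2, an antiproliferative gene, had 0.62 ± 0.14 (adjusted p = 0.15). Mdm2, the ligase that degrades p53, had 8.89 and 8.58 in shRNA1 cells, against 8.70 and 8.47 in shControl cells, with overlapping groups. Bbc3, the pro-apoptotic gene Puma, had 6.699 and 6.691 in shRNA1 cells, against 7.004 and 6.716 in shControl cells, so its change had the opposite sign to that of Pmaip1. Among 24 apoptosis regulators, Pmaip1 alone was called, beside 0.242% of all genes.

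The Ccng1 promoter is shown as the example of a p53 target with the p53 half-site consensus, in capitals, within the 250 bases before its start (chr11:40755287-40755536 on the minus strand; RefSeq, GRCm38.p6).
Ccng1: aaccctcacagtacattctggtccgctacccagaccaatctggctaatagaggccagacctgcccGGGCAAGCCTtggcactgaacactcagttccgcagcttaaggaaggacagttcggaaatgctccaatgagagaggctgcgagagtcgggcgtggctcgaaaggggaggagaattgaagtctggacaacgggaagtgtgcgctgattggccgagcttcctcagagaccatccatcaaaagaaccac
The half-site was searched for by its consensus, which reads the same on both strands, with no mismatch. The windows of all listed starts of a gene were searched, so genes with several starts had more room for a match. The half-site was present in 9 of 20 p53 targets with a promoter window and in 7.51% of all tested genes with one. It was also in 4 of the 14 called genes that rose, Usp17la, Limch1, Acss1 and Ccng1. It was in 0 of the 7 that fell. Of the 5 called p53 targets, 3 had a window, and the half-site was found in Ccng1 but not in Dcxr or Ephx1. A match describes the letters of the window, and p53 sites outside it were not searched.

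Transcription factors of early development changed in both directions, while the core pluripotency genes did not pass the test. Otx2, a homeobox factor of the epiblast and the anterior neural plate, had 9.38 and 9.81 in shRNA1 cells, against 8.17 and 8.26 in shControl cells. It rose 2.6-fold, by 1.38 ± 0.18 (limma adjusted p = 0.0219). Gbx2, a homeobox factor of naive stem cells and of the anterior hindbrain, had 7.81 and 7.47 in shRNA1 cells, against 8.78 and 8.84 in shControl cells, and fell 2.26-fold (-1.17 ± 0.16, limma adjusted p = 0.0276). On the day 4 arrays the mean level was 10.53 for Otx2 and 4.69 for Gbx2, so for both genes the shRNA1 arrays lay between shControl and day 4. Other called genes went either way. Pmaip1 means were 8.16 with shRNA1, 6.48 with shControl and 8.36 on day 4. Those of Timm8a2 were 7.21, 5.69 and 3.44, and those of Ephx1 were 7.725, 6.50 and 5.03, so both moved away from day 4. Esrrb had means of 9.74, 9.77 and 6.05, and Zfp42 had 12.08, 12.16 and 9.32. Of 31 pluripotency genes, Otx2 rose, Gbx2 fell and the others were not called, with a median change of 0.02. Of all genes 0.169% rose and 0.0726% fell. Dppa3, expressed in naive cells and the germ line, had 0.69 ± 0.27 (adjusted p = 0.461).

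Dmrt1, a regulator of germ cells and testis, had 7.55 and 7.70 in shRNA1 cells, against 8.89 and 8.85 in shControl cells. It fell by 1.24 ± 0.13 on the log2 scale (limma adjusted p = 0.0118), with the 2 groups well apart. Of 22 germ line genes it alone was called, beside 0.242% of all genes. Hormad1, a protein of meiotic chromosome axes, moved the other way, with 5.76 and 5.40 in shRNA1 cells, against 4.73 and 4.42 in shControl cells, and was not called (1.01 ± 0.17, adjusted p = 0.0566).

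Among signalling genes, Fgf18, a secreted fibroblast growth factor, had 4.73 and 4.29 in shRNA1 cells, against 6.70 and 6.82 in shControl cells. It had the largest fall of the 30 genes, -2.25 ± 0.26 (limma adjusted p = 0.0134). Of 24 genes of FGF signalling and its ERK response it alone was called, beside 0.242% of all genes. The most changed of the others were Ier3 (1.00 ± 0.45, limma adjusted p = 0.521), Egr1 (-0.74 ± 0.33, 0.514) and Myc (-0.69 ± 0.17, 0.2). Both shRNA1 arrays lay below the controls for 9 of the 24 and above them for 4, beside 23% and 20.4% of all genes. The receptor gene Fgfr2 had 5.01 and 5.07 in shRNA1 cells, against 5.02 and 4.91 in shControl cells, and the feedback inhibitor gene Spry4 had -0.20 ± 0.15 (adjusted p = 0.704). Porcn, the acyltransferase that lipidates Wnt ligands, had 6.23 and 6.38 in shRNA1 cells, against 5.08 and 5.31 in shControl cells, and rose by 1.11 ± 0.15 (limma adjusted p = 0.0276).

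Apart from the transcription factor genes Gbx2 and Dmrt1, the genes that fell included 4 that act in the nucleus or at its pore. The share of such genes among all genes was not counted. Nup210, a membrane nucleoporin, had 5.27 and 5.29 in shRNA1 cells, against 6.61 and 6.97 in shControl cells (-1.51 ± 0.18, limma adjusted p = 0.0159). Eloa, the elongin A subunit of an RNA polymerase II elongation factor, had 5.71 and 6.09 in shRNA1 cells, against 7.32 and 7.34 in shControl cells (-1.43 ± 0.16, limma adjusted p = 0.0131). Mcrs1, a subunit of the INO80 and NSL chromatin complexes, had 7.79 and 7.69 in shRNA1 cells, against 8.96 and 9.23 in shControl cells (-1.36 ± 0.14, limma adjusted p = 0.0118). All 3 genes had both shRNA1 arrays at least 1 log2 unit below the lower control array. Xpo7, a nuclear transport receptor, had 9.16 and 9.24 in shRNA1 cells, against 10.11 and 10.18 in shControl cells (-0.94 ± 0.13, limma adjusted p = 0.0258), and its other probe set gave -1.17. The other probe sets of Eloa gave -0.82 and -0.52, and averaged over its probe sets it was not called (-0.92, adjusted p = 0.0555).

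The partners of these genes did not pass the test, but over all genes only 0.242% did. Lists this short, chosen with earlier results of these data known, can show little by such counts. Of 25 nuclear pore genes Nup210 alone was called, with a median change of -0.11, and of 16 genes of the INO80 and NSL complexes Mcrs1 alone, with a median of -0.17 (-0.08 without shControl replicate 2). Of 42 genes of elongin, Mediator and transcription elongation Eloa alone was called, with a median of -0.12 and 32 members below 0. Ell, another elongation factor, had 5.95 and 6.01 in shRNA1 cells, against 6.66 and 6.68 in shControl cells, and missed the threshold (-0.69 ± 0.12, adjusted p = 0.0642). These medians moved with 1 control array. Without shControl replicate 2 the elongation list had -0.01, and without shControl replicate 1 it had -0.22; for the pore list the values were -0.05 after repeated quantile normalization and -0.23 without shControl replicate 1.

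Genes of the machinery named in the series' title were not called. Of 16 genes of H2B ubiquitination and the PAF1 complex 0 were called, with a median change of -0.004. Over all genes 0.242% were called, so a count of 0 in a list this short says little. Rnf20 had 7.41 and 7.74 in shRNA1 cells, against 7.37 and 7.83 in shControl cells, so the groups overlapped. Usp22, the H2B deubiquitinase of the SAGA complex, had 5.58 and 5.62 in shRNA1 cells, against 6.26 and 6.56 in shControl cells, and did not pass (-0.81 ± 0.17, adjusted p = 0.124). Neither did any of 19 CXXC proteins and histone methylation enzymes (median -0.07; -0.25 without shControl replicate 1 and 0.07 without shControl replicate 2), 19 F-box and SCF genes (median -0.04) or 25 Polycomb genes (median -0.06). Skp2, an F-box protein of the cell cycle, had -0.93 ± 0.22 (adjusted p = 0.191), and Epop, a partner of Polycomb complex 2, had -1.07 ± 0.18 (adjusted p = 0.0642).

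Other called genes belonged to no list, or were the single called member of one. Limch1, a cytoskeletal protein with LIM and calponin homology domains, had 7.27 and 7.34 in shRNA1 cells, against 5.73 and 6.10 in shControl cells. It rose by 1.40 ± 0.18 (limma adjusted p = 0.0219), and its other probe set gave 1.47. Pof1b, an actin-binding protein of epithelial junctions, had 5.25 and 5.07 in shRNA1 cells, against 3.51 and 3.79 in shControl cells, and rose by 1.504 ± 0.17 (limma adjusted p = 0.0131), its shControl mean being below 3.787. Cacna2d2, an auxiliary subunit of voltage-gated calcium channels, had 6.99 and 7.19 in shRNA1 cells, against 5.72 and 5.79 in shControl cells, a rise of 1.34 ± 0.15 (limma adjusted p = 0.0131). Its other probe sets, dim on all arrays, gave 0.18 and 0.08, and the mean of its probe sets was not called (0.53, adjusted p = 0.137).

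Fxyd2, a regulatory subunit of the sodium pump, had 5.71 and 5.95 in shRNA1 cells, against 4.91 and 4.75 in shControl cells, and rose by 1.00 ± 0.15 (limma adjusted p = 0.0393). Its adjusted p was, with that of Hal, the largest of the 30. Plxdc2, a plexin domain membrane protein, had 5.18 and 5.27 in shRNA1 cells, against 4.24 and 4.30 in shControl cells, a rise of 0.96 ± 0.13 (limma adjusted p = 0.0251). Spesp1, a protein of the sperm equatorial segment, had 5.33 and 5.37 in shRNA1 cells, against 4.01 and 4.18 in shControl cells (1.25 ± 0.15, limma adjusted p = 0.0131); its other probe set gave 0.27, and the mean of both was not called (0.76, adjusted p = 0.0923). Plac8, a small cysteine-rich protein, had 6.75 and 6.57 in shRNA1 cells, against 7.73 and 7.91 in shControl cells, and fell by 1.16 ± 0.17 on the log2 scale (limma adjusted p = 0.0317). Of 25 genes of epithelium, keratins and desmosomes, Pof1b alone was called, beside 0.242% of all genes. The list's median change was 0.16, with 21 members above 0. At an unadjusted limma p under 0.05 there were 5 of 25 higher and 0 lower, beside 4.66% higher and 5.16% lower over all genes. With shRNA2 the list's median change against the same shControl arrays was 0.24.

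Acss1, a mitochondrial acetyl-CoA synthetase, had 7.17 and 7.34 in shRNA1 cells, against 5.67 and 6.11 in shControl cells, and rose by 1.36 ± 0.18 (limma adjusted p = 0.0227). Its other probe sets gave 0.37 and 0.28, and with their mean it was not called (0.67, adjusted p = 0.058). Timm8a2, a paralogue of a chaperone of mitochondrial protein import, had 7.20 and 7.22 in shRNA1 cells, against 5.37 and 6.02 in shControl cells, a rise of 1.52 ± 0.21 (limma adjusted p = 0.0307). The shControl arrays differed by 0.65 for this gene, the widest gap between them among the 30. Hal, histidine ammonia-lyase, had 5.88 and 5.75 in shRNA1 cells, against 6.75 and 6.94 in shControl cells, and fell by 1.03 ± 0.15 on the log2 scale (limma adjusted p = 0.0393). The 30th gene, the predicted Gm4802, rose by 1.20 ± 0.16 (limma adjusted p = 0.0227). Outside the genes, 4 probe sets with no single gene were called when every probe set was tested. One of them, annotated to 3 genes, had a change of 3.42 (adjusted p = 0.000103), and the other 3 had changes of -1.24 to 1.71.

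Just past the threshold lay a further set of genes whose arrays did not overlap, none of them called. On the higher side, Gpx3, an extracellular glutathione peroxidase, had 7.45 and 7.23 in shRNA1 cells, against 6.34 and 6.18 in shControl cells (1.08 ± 0.17, adjusted p = 0.0523). Sdc4, a heparan sulphate proteoglycan, had 10.28 and 10.03 in shRNA1 cells, against 8.73 and 8.70 in shControl cells (1.44 ± 0.24, adjusted p = 0.0566). Mgmt, the repair enzyme for alkylated guanine, had 7.61 and 7.79 in shRNA1 cells, against 6.94 and 6.84 in shControl cells (0.81 ± 0.13, adjusted p = 0.0566). The other higher genes with the smallest p were Apoc1, Slc4a3, Nsg2, Gja1, Dglucy, Frmd4b and Hormad1, with changes of 0.82 to 1.26.

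On the lower side, Cpe, carboxypeptidase E, had 6.34 and 6.29 in shRNA1 cells, against 7.63 and 7.68 in shControl cells (-1.34 ± 0.21, adjusted p = 0.0526). Averaged over its probe sets it had -0.70. Isca1, a mitochondrial protein of iron-sulphur cluster assembly, had 8.82 and 8.85 in shRNA1 cells, against 9.60 and 9.92 in shControl cells (-0.92 ± 0.15, adjusted p = 0.0566). Sox4, a developmental transcription factor, had -0.79 ± 0.14 (adjusted p = 0.0642). Of 26 imprinted genes 0 were called, beside 0.242% of all genes. The most changed were both lower, Plagl1 with 5.07 and 5.19 in shRNA1 cells, against 6.65 and 6.95 in shControl cells, and Phlda2 with 9.49 and 9.64 in shRNA1 cells, against 10.33 and 10.73 in shControl cells. Their adjusted p were 0.0678 and 0.0676, and Plagl1 averaged over its probe sets had -0.87.

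**Figure D3:**
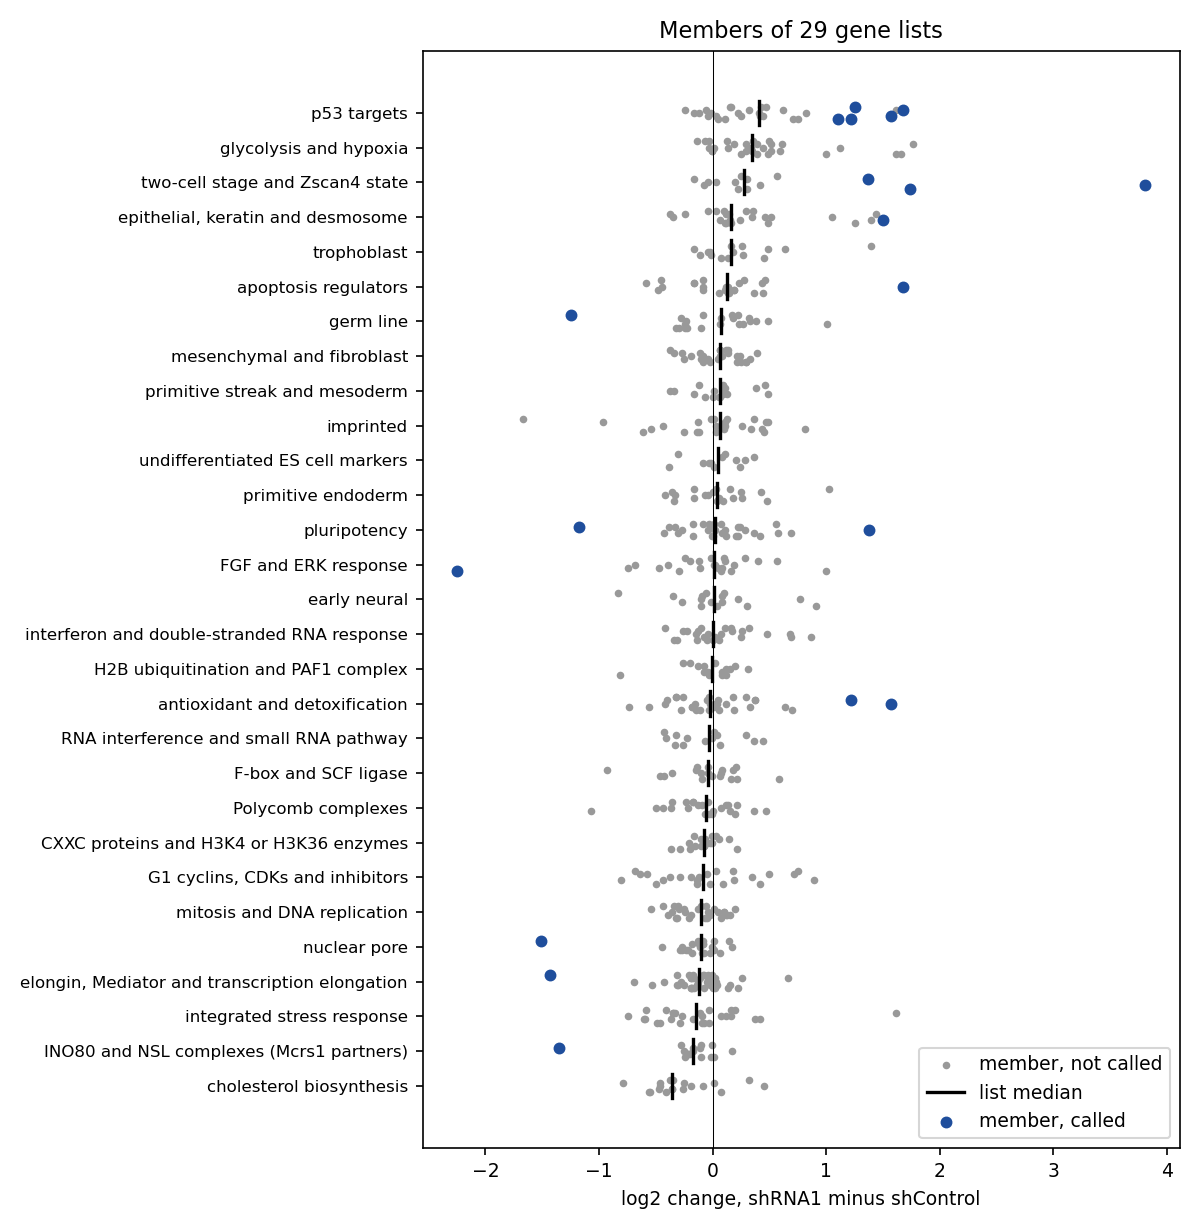
The log2 change with shRNA1 against shControl (horizontal axis) of each measured member of 29 gene lists, ordered by list median; black bars are medians and large points called members. The p53 list, with Dcxr and Ephx1 placed in it knowing their rise, has a median of 0.41 (0.32 without them), glycolysis and hypoxia has 0.35, and cholesterol biosynthesis lies lowest, with a median of -0.35 and 0 called members.

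Metabolic lists were described by their medians, as 0 of their members were called, beside 0.242% of all genes. Of 19 cholesterol biosynthesis genes 15 lay below 0, with a median change of -0.35, beside -0.000905 for all genes. At an unadjusted p under 0.05 there were 9 of 19 lower and 0 higher, beside 5.16% lower over all genes. Idi1, isopentenyl diphosphate isomerase, had 10.11 and 9.69 in shRNA1 cells, against 10.78 and 10.60 in shControl cells (-0.79 ± 0.19, adjusted p = 0.197). Cyp51, lanosterol demethylase, had 7.60 and 7.65 in shRNA1 cells, against 8.29 and 8.07 in shControl cells (-0.55 ± 0.13, adjusted p = 0.197). The list's array medians relative to the shControl mean were -0.30 and -0.40 for shRNA1 and 0.004 and -0.004 for shControl. The 2 shControl values mirror each other by construction, and differences of single genes can cancel in a median. From shControl replicate 1 to replicate 2, Cyp51 changed by -0.22 and Mvd, of the same list, by 0.21. Averaging the probe sets of each gene gave -0.22.

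Glycolysis and hypoxia genes had a median change of 0.35 over 30 genes, with 24 above 0, but followed the replicate number. Their array medians were 0.06 and 0.72 for shRNA1 and -0.19 and 0.19 for shControl, replicate 2 being the higher in both groups. Bnip3, a mitophagy receptor induced by hypoxia, had 9.25 and 11.13 in shRNA1 cells, against 7.55 and 9.31 in shControl cells. The groups overlapped, while the differences between same-numbered arrays were 1.70 and 1.82. Ddit4, an inhibitor of mTOR signalling, had 9.34 and 10.48 in shRNA1 cells, against 7.82 and 8.78 in shControl cells (1.61 ± 0.42, adjusted p = 0.239), with same-numbered differences of 1.515 and 1.71. The list's median was 0.06 without shRNA1 replicate 2, 0.72 without shRNA1 replicate 1, 0.58 without shControl replicate 2 and 0.18 without shControl replicate 1.

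**Figure D4:**
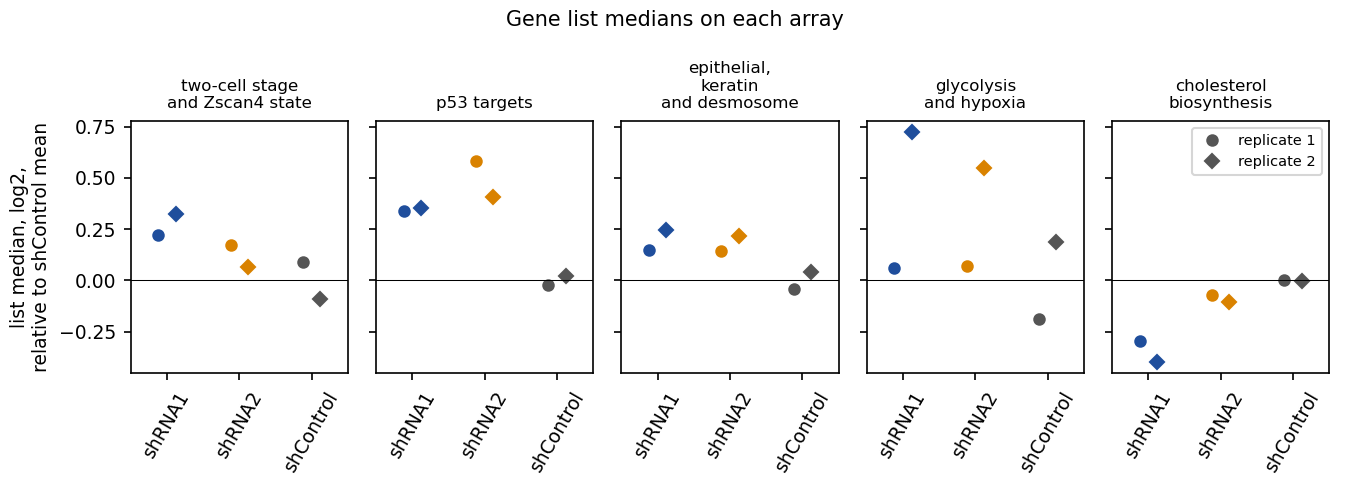
The median of 5 gene lists on each array (vertical axis, log2 relative to the shControl mean of each gene), by group, with circles for replicate 1 and diamonds for replicate 2. The two-cell, p53, epithelial and cholesterol medians separate shRNA1 from shControl on both replicates. The glycolysis median is higher on replicate 2 in every group. The p53 list includes Dcxr and Ephx1, placed in it knowing their rise. Its medians are 0.341 and 0.355 with shRNA1 and, higher, 0.584 and 0.405 with shRNA2.

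Further lists had few or no called members, as did the genes at large, of which 0.242% were called. Of 28 genes of the integrated stress response 0 were called (median -0.14), and of 33 antioxidant and detoxification genes the 2 called were Dcxr and Ephx1 (median -0.02), while Hmox1, heme oxygenase, had -0.74 ± 0.21 (adjusted p = 0.312). Of 27 genes of the interferon and double-stranded RNA response 0 were called (median 0.01); Ifitm1, a surface protein of stem cells that interferon also induces, had 12.34 and 12.41 in shRNA1 cells, against 11.35 and 11.67 in shControl cells (0.86 ± 0.15, adjusted p = 0.0642). None of 14 genes of RNA interference was called (median -0.04). The medians of 24 G1 cell cycle genes and 29 genes of mitosis and replication were -0.08 and -0.10, with 0 called in either. Single arrays moved some of these medians, to -0.245 for the integrated stress response without shRNA1 replicate 2, and to -0.19 for mitosis and replication and -0.15 for RNA interference without shControl replicate 1. Ccnd2, cyclin D2, had 8.36 and 8.37 in shRNA1 cells, against 9.15 and 9.19 in shControl cells (-0.80 ± 0.16, adjusted p = 0.118), and Rb1, the retinoblastoma gene, had 6.73 and 6.66 in shRNA1 cells, against 5.83 and 5.77 in shControl cells (0.90 ± 0.23, adjusted p = 0.218).

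Lists of differentiated cell types held 0 called genes, beside 0.242% of all genes. Their median changes were 0.06 over 28 mesenchymal and fibroblast genes, 0.04 over 20 of primitive endoderm, 0.16 over 15 of trophoblast, 0.06 over 17 of primitive streak and mesoderm, and 0.01 over 16 early neural genes. The trophoblast median was 0.05 without shRNA1 replicate 2. Without shControl replicate 2 the medians were -0.003 for mesenchymal and fibroblast, -0.045 for primitive endoderm, -0.025 for primitive streak and mesoderm and -0.056 for early neural genes. Krt7, a keratin gene in the trophoblast and epithelial lists, had 4.89 and 4.86 in shRNA1 cells, against 3.81 and 3.15 in shControl cells. It was the most changed trophoblast member and was not called (1.40 ± 0.26, limma adjusted p = 0.0803), and its shControl mean lay below 3.787. Col4a1, a collagen of basement membranes, had 6.81 and 7.14 in shRNA1 cells, against 5.74 and 6.16 in shControl cells (1.02 ± 0.24, adjusted p = 0.187). Ncam1, a neural adhesion molecule, had 0.91 ± 0.20 (adjusted p = 0.15; 0.33 averaged over its probe sets), and Tubb3, a neuronal tubulin, had -0.83 ± 0.18 (adjusted p = 0.138).

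The 30 genes were then set against the arrays of the other hairpin. Both comparisons hold the same 2 shRNA1 arrays, on whose values the 30 genes were chosen, so genes called in both are not independent evidence, and the number that sharing alone would give was not computed. Of the 30, 10 also differed between shRNA1 and shRNA2 by limma, among 13 such genes in all (0.105%). Of the 10, 8 were higher with shRNA1, beside 0.0726% of all genes, and 2 were lower, beside 0.0323%. AF067061 had 7.86 and 7.51 with shRNA1, against 4.62 and 4.35 with shRNA2, a difference of 3.20 ± 0.16 (limma adjusted p = 0.000187), and the shRNA2 arrays lay beside the controls. Usp17la had 4.67 and 4.66 with shRNA2, between the other groups, and the difference of shRNA1 from shRNA2 was 2.64 ± 0.20 (limma adjusted p = 0.00219). Gm20767, Pof1b, Acss1, Cacna2d2, Spesp1 and Gm4802 were also higher with shRNA1 than with shRNA2, by 1.19 to 2.11. Mcrs1 had a difference of -1.29 ± 0.14 and Eloa one of -1.43 ± 0.16, both called. Their shRNA2 arrays, with 9.05 and 9.02 for Mcrs1 and 7.44 and 7.22 for Eloa, were close to shControl.

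For other genes the difference between the hairpins was not called. Ccng1 had 11.38 and 11.25 with shRNA1, against 11.19 and 11.14 with shRNA2, a difference of 0.15 ± 0.14. For Dcxr the difference was 0.30 ± 0.16, for Ephx1 0.22 ± 0.13, for Plxdc2 0.21 ± 0.13 and for Ptprv 0.45 ± 0.16, none of them called. The differences of Pmaip1 (0.99 ± 0.20, adjusted p = 0.207), Otx2 (0.82 ± 0.18, adjusted p = 0.24) and Gbx2 (-0.73 ± 0.16, adjusted p = 0.259) did not pass either, and their shRNA2 arrays lay between those of shRNA1 and shControl. For a further set the shRNA2 arrays lay closer to shControl than to shRNA1. Arg2 had 4.16 and 3.78 with shRNA2, Zfp352 had 3.73 and 3.99, Nup210 had 6.59 and 6.49, and Xpo7 had 10.10 and 10.08. Their differences of shRNA1 from shRNA2 were 1.64 ± 0.24, 1.20 ± 0.18, -1.26 ± 0.18 and -0.89 ± 0.13, each with a limma adjusted p of 0.06. Plac8 had -1.02 ± 0.17 (limma adjusted p = 0.103). That these tests missed the threshold does not show equal levels. Against the same shControl arrays shRNA2 had 0 called genes, and since both comparisons share those arrays, their agreement was not tested.

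**Figure D5:**
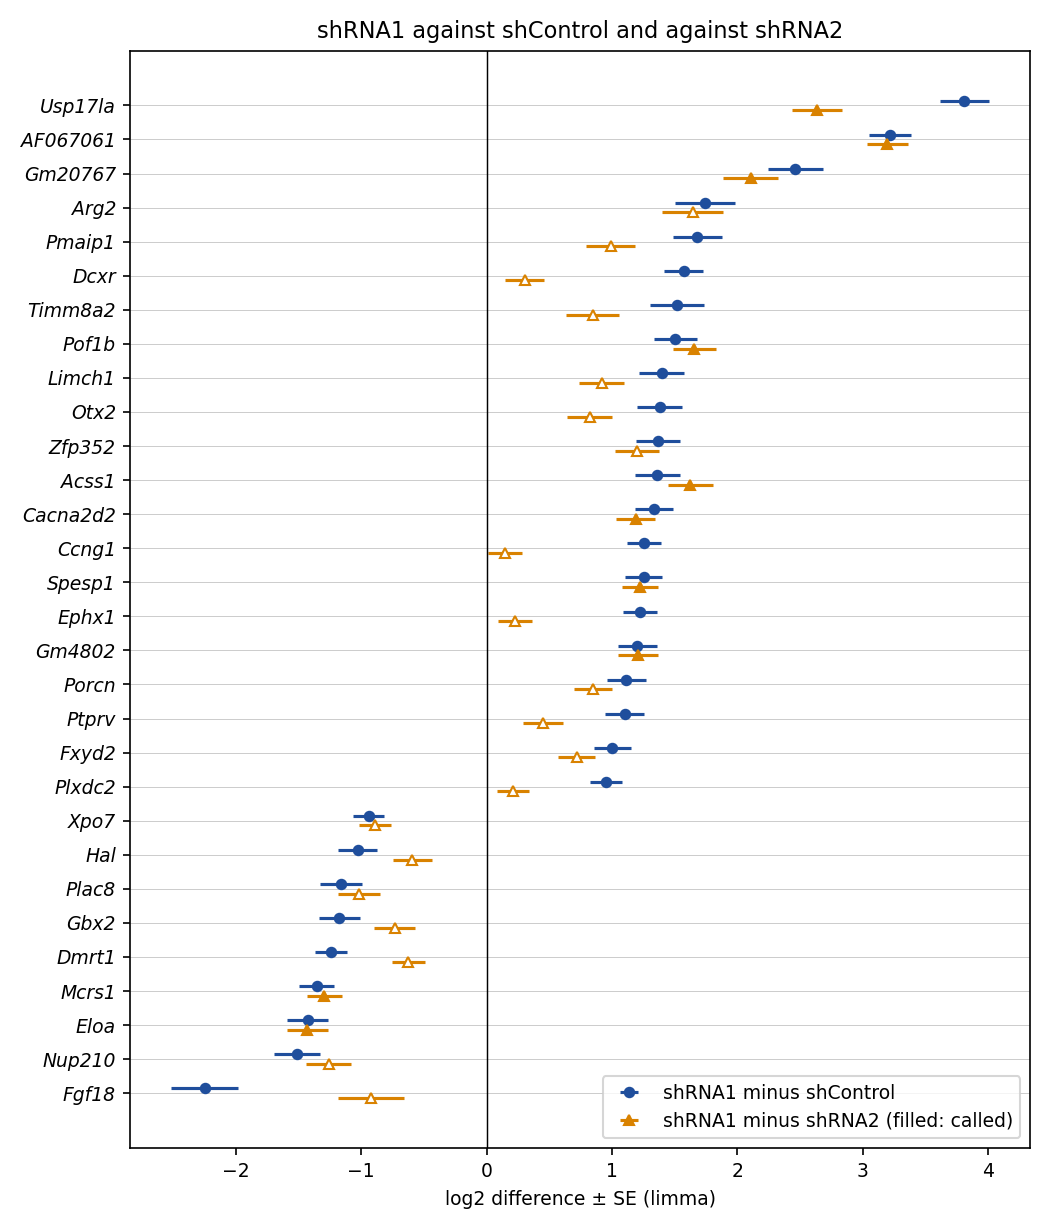
The log2 difference ± SE (horizontal axis, limma) of shRNA1 against shControl (circles) and against shRNA2 (triangles, filled where called) for the 30 called genes. For AF067061, Pof1b, Eloa and Mcrs1 both differences are alike, and for Ccng1, Dcxr, Ephx1 and Plxdc2 the difference from shRNA2 is at most 0.30.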

How the data were processed

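Total RNA of 8 samples was measured on Affymetrix arrays (Mouse 430A 2.0, per the series' design text). The authors deposited log2 values, 1 per probe set, made with RMA (background correction, quantile normalization and summary of probes) per the submitters' processing notes. The sources used here do not state the RMA version or which arrays were normalized as a set. The number of arrays limits the precision. Of 22690 probe sets, the platform annotation gave 20393 a single symbol, 691 more than 1 and 1606 none. Symbols were updated through gene identifiers to RefSeq (GRCm38.p6) for 20364. Each gene was represented by its brightest probe set on average. A model with 4 group means was fitted with limma 3.58.1 in R 4.3.3 (lmFit, eBayes; 4 residual degrees of freedom), and a gene was called where its Benjamini-Hochberg adjusted p over all 12394 genes was under 0.05. The code was tested on simulated data. In 20 runs with 200 of 12394 genes changed 2-fold, 61.6% of them were recovered on average, with 5.55 false calls. The simulated noise was independent between arrays, whereas same-numbered arrays here shared deviations, and the number of changed genes was set. These figures therefore need not hold for the real comparison. A gene that was not called may still have changed.

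Groups came from sample titles. The genes and lists were chosen with earlier results of these data known. The genes named were all called genes, up to 10 uncalled genes per direction with the smallest p, and the called members and up to 4 most changed members of each list. Outside that rule, 2 predicted genes and some well-known genes of each pathway (Pou5f1, Nanog, Fbxl20, Tcstv3, Dppa2, Dppa4, Mdm2, Bbc3, Btg2, Fgfr2, Spry4, Rnf20) were named after their values were seen. A list of Xlr genes was left out because its only measured member lay on chromosome 13. Alternatives were the choice of probe set, leaving out the dimmest 30% of genes, the variance model, the groups in the fit, array weights, scaling, a replicate block and each array left out in turn.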

Additional observations from a re-analysis of the deposited data

Results flagged for a closer look

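Of the 30 genes called with shRNA1 against shControl, 10 also differed between the hairpins by limma's test of that difference, and are listed for that reason. The differences of shRNA1 from shRNA2, on the log2 scale, were 3.20 for AF067061, 2.64 for Usp17la, 2.11 for Gm20767, 1.66 for Pof1b, 1.62 for Acss1, 1.22 for Spesp1, 1.21 for Gm4802 and 1.19 for Cacna2d2. They were -1.29 for Mcrs1 and -1.43 for Eloa. Both comparisons hold the same 2 shRNA1 arrays, on whose values the 30 genes were chosen, so this overlap is not independent evidence and was not set against the overlap that sharing would give.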

How the results depend on the processing

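The count of genes called with shRNA1 against shControl was 30, and it was 48 with a trended and robust variance model, 113 with the compared groups alone, 113 with the undifferentiated groups alone and 51 after repeated quantile normalization. Leaving out 1 array gave 2 to 113. The count against shRNA2 was 13, and it was 37 with the undifferentiated groups alone, 176 with array weights and 2 to 37 with 1 array left out. With the replicate block these counts were 49 and 8. Deviations of same-numbered arrays correlated at 0.504 between shRNA1 and shRNA2, 0.261 between shRNA1 and shControl and 0.226 between shRNA2 and shControl, and at -0.022 between shRNA1 and day 4. The labels do not say what a number stands for and there are only 2 of them, so the undifferentiated arrays may share a batch by number, and the numbers were not used as pairs in the values reported. The cause of these shifts was not tested. All 1807 recomputed values of 101 single genes kept their direction, and 61 of 493 recomputed list medians moved by more than the spread between replicates. Leaving Dcxr and Ephx1 out of the p53 list, chosen after seeing the data, gave a median of 0.32, against 0.41 with them. With a gene's probe sets averaged, Cacna2d2, Eloa, Spesp1, Acss1 and Fxyd2 were no longer called. Genes near the lower quartile of the arrays, such as Usp17la, Gm20767, Pof1b and Zfp352 in shControl cells, have uncertain folds.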
